A study of Mus musculus with 12 samples.

Results

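Ly6c2-high monocytes were examined in droplet-based scRNA-Seq of CD45+ cells from MC38 tumors, a mouse colon carcinoma that grows in C57BL/6 mice. The cells were chosen by their own counts of transcripts, with a limit set per 10000 unique molecular identifiers (UMIs) of the cell, so the genes of the rule are a description and not a result. A member had at least 5 Ly6c2 UMIs per 10000, less than 5 each of Arg1, Cxcl9 and the sum of C1qa, C1qb and C1qc, and at least 1 UMI of Csf1r or Ccr2. It had no UMI of Cd3d, Cd3e, Cd3g, Ncr1, Siglech, Mki67 or Top2a and at most 1 of Csf3r. Of 128912 cells kept, 1119 were members, or 0.868% (0.818 to 0.920% by the Clopper-Pearson method at 95%, which covers the error of counting alone, as do all intervals given here). All mice received MC38 cells subcutaneously on day 0 and were harvested on day 17, and CD45+ cells were enriched from the tumors with microbeads. The labels list 4 groups of 3 mice, given daily subcutaneous vehicle or 100 mg/kg of the EZH2 inhibitor PF-06821497 (EZH2i), either for 7 days from day 10 or for 16 days from day 1. The cells came from 12 libraries that were deposited as 1 matrix and carry a library number. No label matched a number to a mouse, so no cell was placed in a treatment group, EZH2i was not compared with vehicle, and the matrix was treated as 1 pooled sample without p-values.

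Ly6C-high or classical monocytes leave the bone marrow through the chemokine receptor CCR2 and enter inflamed tissue and tumors, where many of them become macrophages or dendritic cells. Ly6c2 encodes the surface protein by which these cells are sorted in mice, and Plac8 is an abundant transcript of the same cells. Complement C1q, Arg1 and Cxcl9 mark states of tumor macrophages, and a limit on these genes leaves the cells with the fewest signs of that change. Patrolling monocytes, the other main blood subset, have little Ly6C and express Ace, Treml4 and Nr4a1.

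The libraries were uneven in depth. They held 3330 to 37413 cells kept and 33 to 175 members (median 87.5), and the median UMI count of the members ran from 1042 in library 6 to 13609 in library 8. Library 6, with 59 members and 67848 member UMIs in all, and library 5, with 43 members, had the shallowest members and the most cells. Library 4 differed by heat shock transcripts, at 6482 CPM over the 7 listed genes in its members against at most 1693 in any other library. It also differed by neutrophil transcripts, at 4866 against at most 889 CPM over 11 listed genes, S100a8 and S100a9 among them. CPM stands for a gene's UMIs divided by all UMIs of the same cells and multiplied by 1000000. Y-linked transcripts were present in the members of libraries 1 to 6 and absent from those of libraries 7 to 12, which held Xist. The study describes its mice as female. A total of 29 members had a barcode sequence that was also found in a cell of another library, and no 2 members of different libraries shared one.

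The label was checked with genes that the rule did not use. Plac8 (ENSMUSG00000029322, GRCm38 chromosome 5, 100553725 to 100572245) was at 3943 to 6484 CPM over the 12 libraries with a median of 4940, summed over the members of a library. Chil3, which encodes a secreted chitinase-like protein of myeloid cells, ran from 664 CPM in library 3 to 3429 CPM in library 10. Vcan, a matrix proteoglycan gene of classical monocytes, ran from 70.6 CPM in library 5 to 361.4 CPM in library 10. All 16 classical monocyte genes on the list that were outside the rule had a UMI in the members. So did all 12 macrophage genes outside the rule and all 12 patrolling monocyte genes, so this count does not check the label. The classical monocyte genes summed to 24186 to 39990 CPM (median 31875). Ly6c2 (chromosome 15, 75108158 to 75111970), which chose the cells, had a median of 7 UMIs per member. Ccr2, which also belongs to the rule, was at 593 to 1006 CPM, so neither level checks the label. Ly6c1, the neighbouring paralog of Ly6c2, had 5 UMIs in all members. Of the 91-base windows in the last 400 bases of Ly6c2 transcripts, 17.1% also occur in Ly6c1 transcripts, so the division of counts between the paralogs is uncertain.

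Each set of marker genes of other cells counted here was found in at most 120 members (10.7%). The rule had already removed cells with a UMI of Cd3d, Cd3e, Cd3g or Ncr1 or more than 1 of Csf3r. The T cell, NK cell and neutrophil counts are therefore partly set by the rule. Klrd1, Ccl17 and Mgl2, genes of cytotoxic lymphocytes and dendritic cells, were not counted here. They were among the leading genes of a cluster of 146 members described further on. UMIs of the T cell genes Trac, Cd8a, Cd4 or Trbc2 were in 20 members (1.79%), of the NK cell genes Klrb1c, Klra8, Gzma or Eomes in 10 (0.894%), and of the neutrophil genes Retnlg, Cxcr2 or Ly6g in 27 (2.41%). The dendritic cell genes Xcr1, Clec9a, Flt3 or Cd209a were in 65 (5.81%), with Xcr1 at 0, and Ace or Treml4 was in 120 (10.7%). In 11 members there were at least 3 UMIs of the neutrophil genes, with up to 73 in 1 cell, and in 4 at least 3 of the NK cell genes, with up to 166 in 1 cell. When members that held a UMI of 12 genes of other lineages were left out, the rest made up 0.842% of all cells kept. These 12 included no T or NK cell gene, and of the other genes counted above only Retnlg, Ly6g and Xcr1.

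Each limit cut through a continuous range. Between 4 and 5 Ly6c2 UMIs per 10000, just outside, there were 87 cells with Plac8 at 3941 CPM, and between 5 and 6, just inside, 82 cells with 5361 CPM. For the C1q sum, 64 cells between 4 and 5 were inside with Plac8 at 5172 CPM and 82 cells between 5 and 6 were outside with 5453 CPM. For Arg1, 26 cells were just inside with 3660 CPM and 23 just outside with 3233 CPM, and for Cxcl9, 11 were just inside with 4436 CPM and 15 just outside with 6638 CPM. The C1q limit alone removed 2789 cells that met every other criterion, against 688 for Arg1 and 226 for Cxcl9. Cells of other types also passed these limits. The C1q sum reached 5 per 10000 in 38.5% of 644 Retnlg-positive neutrophils (34.7 to 42.4%, median 2220 UMIs) and in 31.1% of 273 Cd79a-positive B cells (25.7 to 37.0%, median 1330 UMIs). Ly6c2 reached its limit in 7.45% of these neutrophils and 2.56% of these B cells. In 6825 Cd3-positive T cells (median 2841 UMIs), some of which are known to express Ly6C, Ly6c2 reached it in 22.3% and the C1q sum in 36.6%. These pooled shares varied between libraries with at least 50 such cells. In 11 libraries of T cells they were 13.7 to 36.6% for Ly6c2 and 15.4 to 59.3% for the C1q sum. The neutrophils of 3 libraries had 4.76 to 11.4% and 34.2 to 43.8%, and the B cells of 1 library 0% and 16.7%. Whether free RNA or doublets gave these counts was not tested. A single Ly6c2 UMI put 51 members over the limit (4.56%), 20 of them in library 6 (33.9% of its members).

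The share of Ly6c2-high monocytes among the cells kept differed between libraries. It was lowest in library 6 at 0.158% (0.120 to 0.203%) and library 5 at 0.220% (0.159 to 0.296%), had a median of 1.5%, and was highest in library 8 at 2.49% (2.11 to 2.91%) and library 11 at 2.0% (1.63 to 2.44%). Libraries 5 and 6 were also those with the most cells kept, 19562 and 37413, and without libraries 4, 5 and 6 the share in the other 9 was 1.55%. Whether the libraries left out share a treatment was not resolved here, so their low shares cannot be told apart from an effect of treatment. The 4 lowest shares, with 0.541% in library 3 and 0.708% in library 4, were all from libraries with Y-linked transcripts. Fewer monocytes cannot be told apart from more of the other CD45+ cells, nor from more Ly6c2-high cells over the C1q limit. Cells left out by the C1q limit alone numbered 675 against 59 members in library 6 and 363 against 43 in library 5. In library 4 they numbered 455 against 80 members, but 160 against 175 in library 1 and 146 against 153 in library 8. The part of the C1q limit in the low shares was not tested. When each cell was thinned to 2000 UMIs, which left out 25586 shallower cells, the lowest share was 0.0305% (library 6), the highest 2.34%, and the median 1.11%. Of the 987 members with at least 2000 UMIs, 48.6% were still members after thinning, where 1 UMI equals 5 per 10000. The 736 members after thinning therefore included cells that were not members at full depth.

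**Figure D1:**
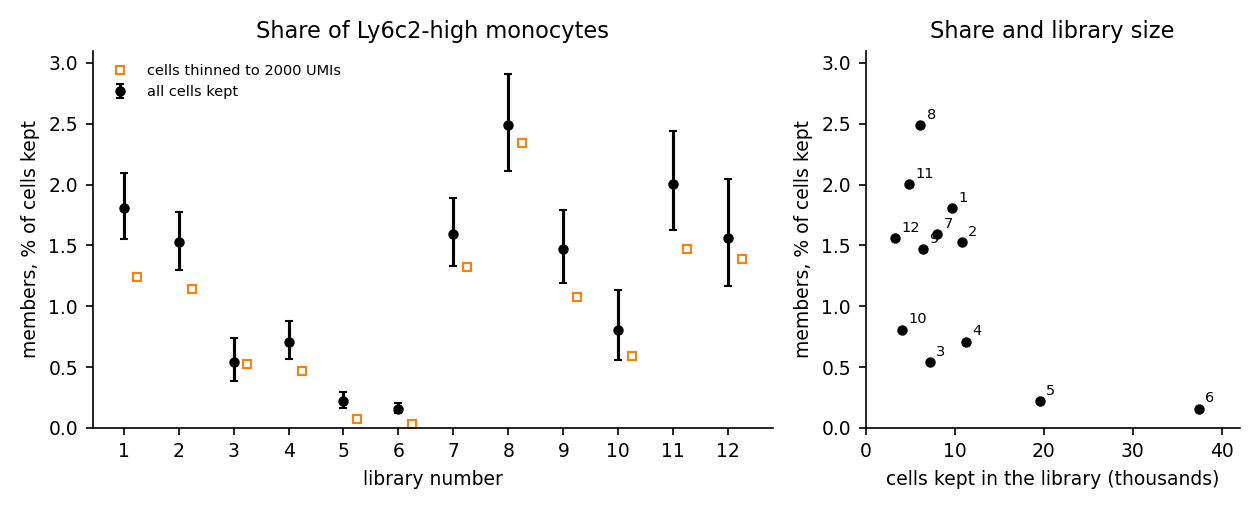
Left, members as a percentage of the cells kept in each of 12 libraries, with exact 95% binomial intervals as bars, and open squares for cells thinned to 2000 UMIs. Right, the same unthinned share against the number of cells kept, by library number. Libraries 5 and 6 had the most cells and the lowest shares, 0.220% and 0.158%.

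The other 3 populations of the same gate, which met the criteria on Csf1r, Ccr2 and the excluded lineages, were set beside the members. C1q macrophages (24774 cells) had low Ly6c2 and a C1q sum of at least 5 per 10000, and Ly6c2-high C1q-positive cells (2789 cells) had high Ly6c2 and the same C1q sum. Ace- or Treml4-positive cells (282 cells) had low Ly6c2 and low C1q with a UMI of either gene. Arg1 and Cxcl9 were low in all of them. UMIs were summed per population and library, and the log2 ratio of CPM with 5 CPM added was taken within each library that held at least 50 cells of both populations. A gene counts as higher or lower if its median ratio was at least 2-fold and every such library had the same sign. These contrasts use the genes of the rule, so they describe the cells and are no tests.

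Against C1q macrophages, Ly6c2-high monocytes held far more of the transcripts of classical monocytes. Among 5607 genes with at least 20 CPM in either population, 238 (4.24%) were higher and 285 (5.08%) lower in the members over 9 libraries. Without libraries 4, 5 and 6 the counts were 259 and 297 over 7 libraries, and without the cells of clusters 5, 6 and 7 described further on they were 274 and 329 over 6 libraries. With 20 CPM added in place of 5 they were 150 and 147. Of 15 classical monocyte genes tested outside the rule, 12 were higher and 0 lower, with a median log2 ratio of 2.68 against -0.02 over all genes tested. Of 7 patrolling monocyte genes tested, 1 was higher and 1 lower. The patrolling list summed to 812 CPM over all members and 886 CPM over all C1q macrophages. Plac8 was at 3943 to 6484 CPM in the members (median 4949) and at 94.5 to 487.2 CPM in the macrophages (median 182.6). The ranges did not overlap, and the median log2 ratio was 4.89 (3.21 to 5.69 over libraries). Chil3 was at 1023 to 2847 CPM in the members and 29.9 to 143.0 CPM in the macrophages, a log2 ratio of 4.91. Hp, which encodes the hemoglobin scavenger haptoglobin, had a log2 ratio of 4.38. Vcan had a log2 ratio of 3.90. Ifitm6, an interferon-induced transmembrane protein gene of myeloid cells, was at 177.4 to 355.3 CPM against 3.28 to 14.6 CPM.

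Genes of differentiated macrophages were lower in the members. Of 12 macrophage genes tested outside the rule, 9 were lower and 0 higher, with a median log2 ratio of -2.14. Apoe, which encodes a lipid carrier, was at 2377 to 8505 CPM in the members (median 3622) and 13943 to 34030 CPM in the macrophages, a log2 ratio of -2.21. Cd63, a tetraspanin gene of lysosomes, had a log2 ratio of -3.36 and Ms4a7 one of -3.18. Outside this list, Fcrls (-5.15), the adhesion molecule gene Vcam1 (-5.03), and the chemokine genes Ccl8 and Pf4 (both -4.93) had the lowest ratios. Of 7 cathepsin and lysosome genes, 4 were lower, Ctsd (-2.54), Lgmn (-1.61), Ctsb (-1.57) and Ctsz (-1.04), and 0 were higher. Trem2, a lipid receptor gene of tumor macrophages, had a log2 ratio of -2.13, and Mertk, a receptor for dying cells, one of -2.06.

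S100 genes and part of the interferon and inflammatory genes were higher in the members in the same comparison. All 6 S100 genes were higher, with S100a4 at a log2 ratio of 3.34, S100a6 at 2.68 and S100a10 at 1.80. S100a8 and S100a9, which neutrophils also express, were at 145 and 114 CPM as medians over libraries and at 1821 and 2337 CPM in library 4. The 11 neutrophil genes outside the rule, S100a8 and S100a9 among them, summed to 173 to 4866 CPM in the members. A UMI was found for 9 of them, and Ngp and Camp were at 0. Of 5 neutrophil genes tested against the macrophages, 4 were higher and 0 lower, with a median log2 ratio of 2.07. The part of neutrophil RNA in the S100a8 and S100a9 values was not tested. Of 19 interferon-stimulated genes, 8 were higher and 0 lower, among them Mx1 (1.35), Isg15 (1.34), Ifi204 (1.17) and Cmpk2 (1.15). Rsad2 was at 176.9 to 798.3 CPM in the members and 131.5 to 281.1 CPM in the macrophages, ranges that overlapped, and its log2 ratio of 1.49 was not called since 1 library had the opposite sign (-0.33). Of 12 interleukin 1 and inflammasome genes tested, 4 were higher, Il1rap (1.32), Il1b (1.29), Il18 (1.23) and Casp4 (1.08), and Il1a was lower (-1.30). Il1b, a cytokine gene, was at 2787 to 5773 CPM over the 12 libraries. Of 9 innate sensing genes, 2 were higher and 0 lower, Clec4e (2.34), a receptor gene for microbial and damage-derived glycolipids, and Clec4d (1.06). Of 6 suppressive and angiogenic genes, 2 were higher and 0 lower, Trem1 (1.55), an amplifier of myeloid activation, and Tgfb1 (1.11). On the interleukin 1, innate sensing and suppressive lists, no gene was called against Ly6c2-high C1q-positive or Ace- or Treml4-positive cells. Of 6 S100 genes, 3 were higher and 0 lower against the former, and 0 higher and 2 lower against the latter.

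MHC genes did not pass in this comparison, and other groups had genes on either side or on the macrophage side. None of 7 MHC class II genes was called, and their median log2 ratio was -0.12. None of 9 MHC class I genes was called (median 0.45). Of 14 chemokine ligand genes, 4 were lower, Ccl8, Ccl12 (-2.82), Ccl7 (-1.46) and Cxcl16 (-1.26), and 0 higher. Of 9 matrix protease and inhibitor genes tested, 3 were higher (Mmp8 2.17, Mmp19 1.74 and Timp1 1.55) and 5 were lower, among them Timp2 (-3.59) and Mmp12 (-1.89). Of 15 transcription factors, Cebpb was higher (1.19) and Maf lower (-1.16), which is near the 4.24% higher and 5.08% lower over all genes.

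**Figure D2:**
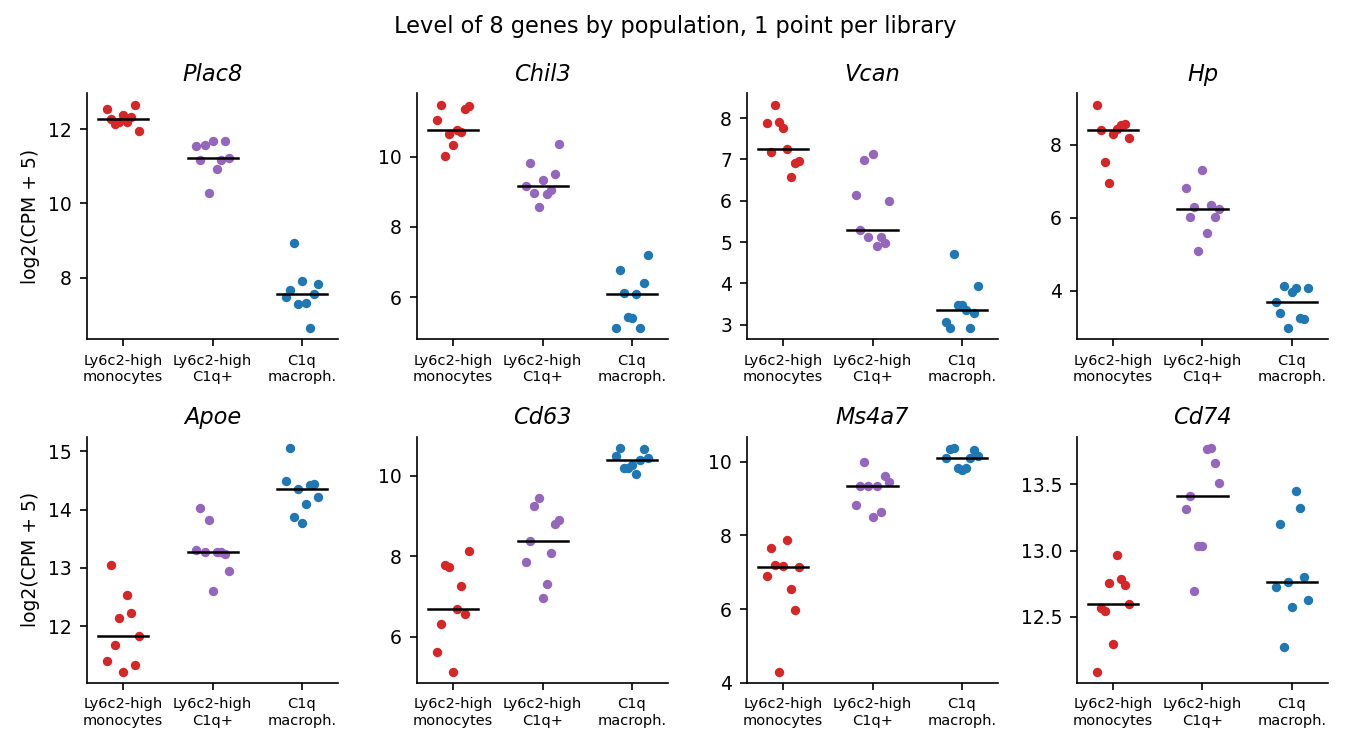
log2(CPM + 5) of 8 genes in Ly6c2-high monocytes, Ly6c2-high C1q-positive cells and C1q macrophages, with 9 points for the 9 libraries compared and a bar at the median. Plac8 fell from 3943 to 6484 CPM in the members to 94.5 to 487.2 CPM in the macrophages with the C1q-positive cells between, and Apoe took the opposite order.

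Ly6c2-high C1q-positive cells lay between the members and C1q macrophages for Plac8, Chil3, Vcan, Hp, Apoe, Cd63 and Ms4a7, by median CPM over libraries. Their median of Cd74, the MHC class II invariant chain gene, was higher than in either, at 10910 CPM against 6205 CPM in the members and 6959 CPM in the macrophages. Against these cells, 48 of 5313 genes (0.903%) were higher in the members and 42 (0.791%) were lower over 9 libraries. With 20 CPM added the counts were 24 and 22, and with a C1q limit of 2.5 per 10000 there were 28 higher. Of the 15 classical monocyte genes, 9 were higher and 0 lower (median log2 ratio 1.28, against 0.01 over all genes tested), with Hp at 2.19, Vcan at 1.76, Gsr at 1.66, Chil3 at 1.66 and Plac8 at 1.02. Plac8 was at 1234 to 3296 CPM in the C1q-positive cells, which did not reach the lowest library of the members. S100a8 had the highest ratio, 2.29, with 0.04 in the lowest library and 4.57 in the highest. Of 5 neutrophil genes tested, S100a8 among them, 2 were higher and 0 lower, with a median log2 ratio of 1.61. Of 11 macrophage genes tested, 5 were lower and 0 higher, with Ms4a7 at -2.08, Cd63 at -1.71 and Apoe at -1.38. Of 7 MHC class II genes, 1 was called, H2-Eb1 (-1.04), 6 did not pass, and the median log2 ratio was -0.85. None of 19 interferon-stimulated genes was called (median 0.26). How many of these cells passed the C1q limit through RNA of other cells was not tested.

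The Ace- or Treml4-positive cells were numerous enough for a comparison in libraries 2 and 8 alone. Of 5262 genes, 101 (1.92%) were higher in the members and 106 (2.01%) lower. Without library 8 the counts were 282 and 401 from library 2 alone, and with 20 CPM added in place of 5 they were 44 and 47. These cells went beyond patrolling monocytes, since the dendritic cell genes Itgae (-3.21), Mgl2 (-2.83) and Xcr1 (-2.70) and the neutrophil gene Retnlg (-2.65) were among the genes with the lowest ratios in the members. Of 12 patrolling monocyte genes, 9 were lower in the members, including Ace and Treml4, which chose the other cells, as well as Eno3 (-2.76), Adgre4 (-2.63), Pglyrp1 (-2.10) and Spn (-2.05). Nr4a1, the transcription factor gene that patrolling monocytes need, was not called (-0.42), and Plac8 was not either (-0.17). Of 15 classical monocyte genes tested outside the rule, 4 were higher and 0 lower. Their median log2 ratio was 0.57, against -0.02 over all genes tested. Of 9 macrophage genes tested, 3 were higher and 0 lower. Ms4a7 (2.74), Ccl12 (2.68), Ccl5 (2.29) and Ccl7 (2.28) were higher in the members, as were 7 of 18 interferon-stimulated genes with 0 lower, among them Bst2 (1.32), Irf7 (1.31) and Isg15 (1.29).

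**Figure D3:**
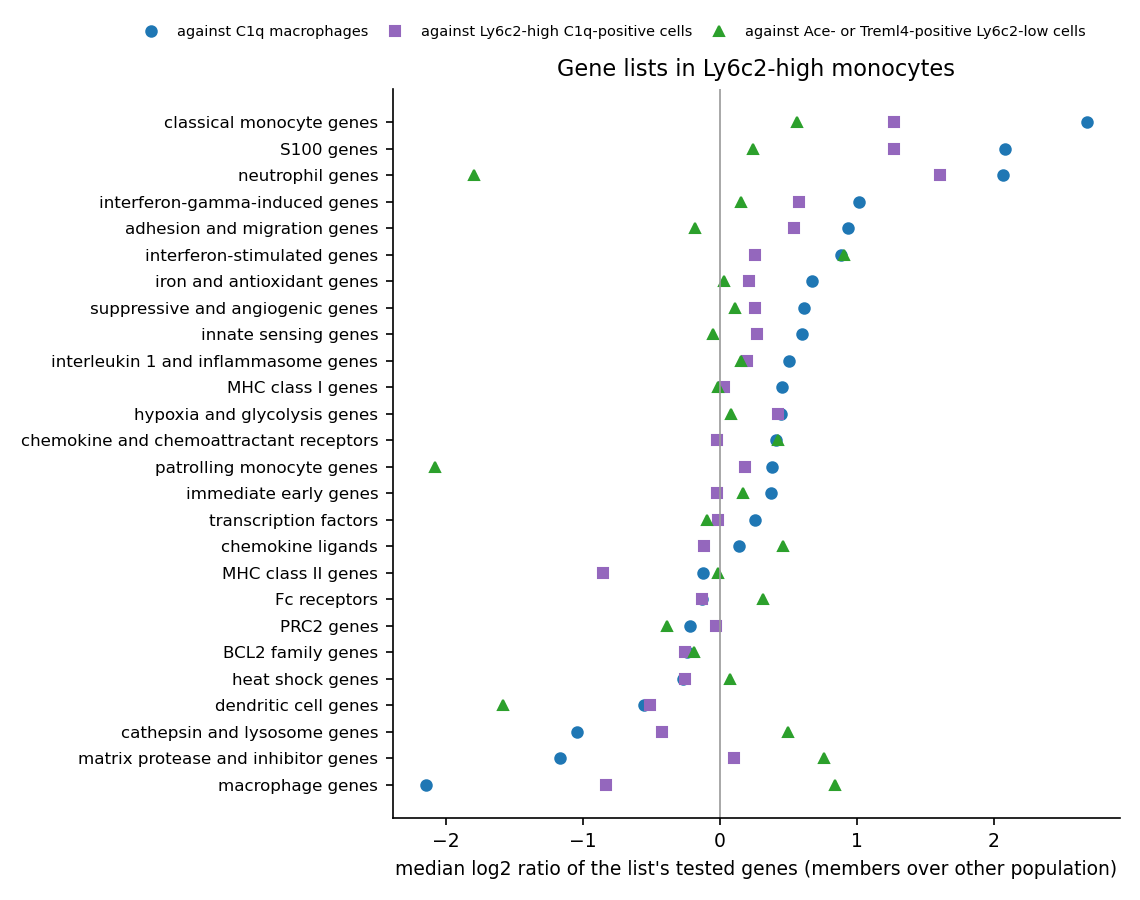
Median log2 ratio of CPM (members over the other population, 5 CPM added) of each gene list with at least 4 genes tested, for the 3 comparisons. Classical monocyte genes lay highest against C1q macrophages (2.68), and macrophage genes lowest (-2.14).

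The target of the drug and its complex were measured at low levels. Ezh2, the histone H3K27 methyltransferase of Polycomb repressive complex 2 (PRC2), had 81 UMIs in all members, 12.5 CPM (9.96 to 15.6, Poisson 95% interval), and was at 0 in library 6, where 1 UMI is 14.7 CPM. In C1q macrophages it was at 22.8 CPM (22.1 to 23.6), and the median log2 ratio of -0.45 was not called. Cells with Mki67 or Top2a had been removed from both populations. Of 7 PRC2 genes tested against these macrophages, Jarid2, an accessory subunit, was higher (1.92) and Rbbp7, a histone-binding subunit, lower (-1.15). With 4.24% of all genes higher and 5.08% lower in that comparison, 1 gene of 7 in each direction says nothing particular about the complex. Of 11 BCL2 family genes tested, Bcl2a1a (-1.13) and Bcl2a1b (-1.09), near-identical antiapoptotic paralogs whose reads may be shared, were lower and 0 were higher. Mcl1, another antiapoptotic gene, was at 1001 to 1523 CPM over the libraries and was not called (0.86).

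The members were not uniform. A graph clustering of their transcripts, in which genes of the rule, Xist, Y-linked and mitochondrial genes were left out, gave 7 clusters. Since the same genes made the clusters, their levels are a description, given as CPM over the UMIs of a cluster and, in brackets, over all other members. Cluster 1 (296 cells, 26.5% of the members) had more Ms4a7 at 356.2 CPM (79.5), Apoe at 8476 CPM (3043) and H2-Ab1, an MHC class II gene, at 5601 CPM (2232). Cluster 2 (212 cells) had more Ifitm6 at 634.8 CPM (162.6) and Hp at 835.7 CPM (237.6), as well as Prtn3, a granule protease gene of immature myeloid cells, at 81.4 CPM (19.6), and less Ccl5 at 17.3 CPM (510.2). Cluster 3 (200 cells) had more Slpi, a protease inhibitor gene, at 642.3 CPM (212.5) and Tgm2, a transglutaminase gene, at 1300 CPM (466.3). Its MHC class II genes were low, with Cd74 at 1480 CPM (7761). Clusters 1 to 3 differed in the genes that separated the members from macrophages, with Chil3 at 1211 CPM in cluster 1, 2489 CPM in cluster 2 and 3357 CPM in cluster 3.

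Clusters 5, 6 and 7 went against the label in part, and so did the list sums of cluster 1. Its classical monocyte genes outside the rule summed to 23549 CPM, against 22680 CPM in cluster 6 and 32289 CPM over all members. Its macrophage genes outside the rule summed to 11100 CPM, against 17452.5 CPM in cluster 6 and 6996 CPM over all members. Cluster 5 (146 cells, median 2313 UMIs) led with Gzma, Klrd1, Ccl17 and Mgl2, genes of cytotoxic lymphocytes and dendritic cells, had Plac8 at 3881 CPM and held 74.6% of the members of library 6, 34.9% of those of library 5 and 7.15% of the members outside libraries 4, 5 and 6. Its Gzma level of 458.4 CPM came from 5 cells, 1 of which held 166 of the 255 UMIs, while Klrd1 was found in 28 cells and Ccl17 in 24. Cluster 6 (51 cells) had macrophage genes, with Spp1, a secreted phosphoprotein gene, at 7043 CPM (388, with 632 of its 2215 UMIs in 1 cell), Gpnmb at 426.1 CPM (8.14) and Mrc1, the mannose receptor, at 308.4 CPM (23.4). Of its cells, 16 were from library 4, which had 80 members. Cluster 7 (29 cells) had neutrophil genes, with S100a9 at 10072 CPM (41.3), Retnlg at 825 CPM (0.631) and Cxcr2 at 342.2 CPM (1.26), and 12 of its cells were from library 4. All 7 clusters had Plac8 between 3361 and 7542 CPM. Without clusters 5, 6 and 7 the members, with cluster 1 still among them, made up 0.693% of the cells kept.

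**Figure D4:**
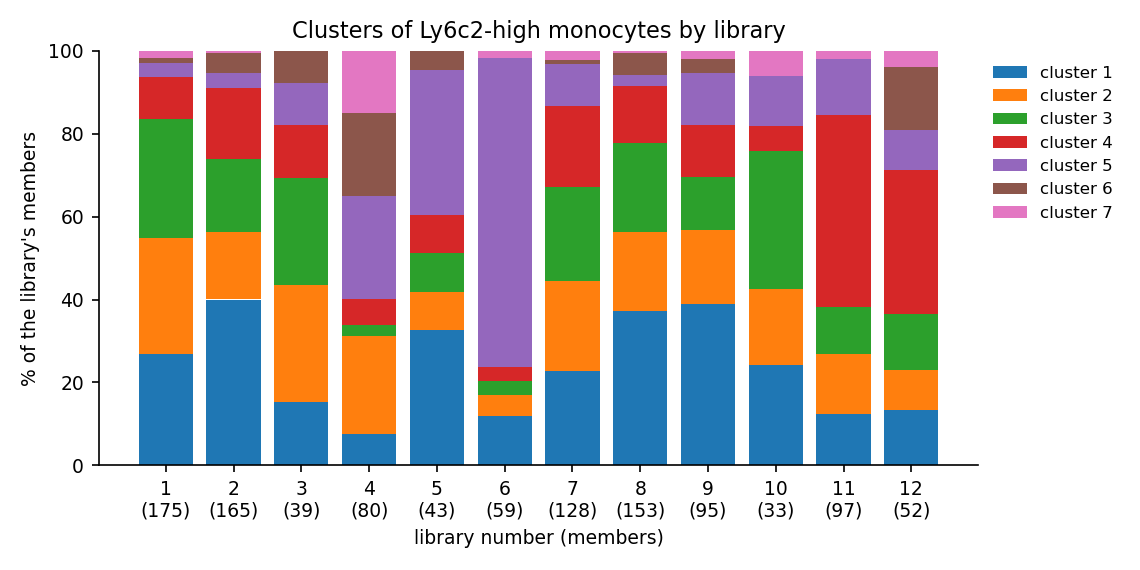
Share of each cluster among the members of every library, as stacked bars that add up to 100%, with the number of members in brackets. Cluster 5 made up 74.6% in library 6, cluster 4 made up 46.4% in library 11, and clusters 6 and 7 were most frequent in library 4.

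Cluster 4 (185 cells, 16.5% of the members) was set apart by interferon-stimulated genes. Rsad2, which encodes the antiviral enzyme viperin, was at 2318 CPM (2232 to 2406, Poisson 95% interval) against 210.1 CPM in other members. Ifit3 was at 1253 CPM against 108.9 and Ifit1 at 843 CPM against 93.7, and both encode antiviral proteins that bind RNA or its partners. Cxcl10, a chemokine gene for activated T cells, was at 3774 CPM against 521.7. Plac8 was at 7542 CPM in cluster 4, above the other clusters. The cluster made up 3.39% of the members in library 6 but 46.4% in library 11 and 34.6% in library 12 (median 12.7%).

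Many interferon-stimulated genes carry a short element in their promoter that is bound by the interferon-activated STAT and IRF proteins. The letters GAAANNGAAA, on either strand, were searched in the RefSeq promoters of GRCm38.p6, from 250 bases before to 50 bases after each start. Of the 12 leading genes of cluster 4, 9 had a promoter sequence, and 6 of these held a match (66.7%), Cxcl10, Ifit1, Ifit1bl1, Ifit3, Ifit3b and Rsad2. Over all 27025 genes with a sequence, 1079 held one (3.99%), and on the list of interferon-stimulated genes 7 of 13. The stretch that holds the matches was the same in Ifit3 and Ifit3b, so they are not separate cases. A match is a description of letters and not a shown binding site. The stretches around the matches in the 4 genes described above are given 5′ to 3′ with matches in capitals, all of them before the start site.
Ifit3 (chr19:34583348-34583441, plus strand): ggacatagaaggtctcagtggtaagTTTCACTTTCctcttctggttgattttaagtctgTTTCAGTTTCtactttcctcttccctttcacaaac
Ifit1 (chr19:34640760-34640838, plus strand): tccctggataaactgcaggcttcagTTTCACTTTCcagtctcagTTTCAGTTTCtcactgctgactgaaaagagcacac
Rsad2 (chr12:26456538-26456597, minus strand): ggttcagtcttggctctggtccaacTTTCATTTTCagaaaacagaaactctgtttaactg
Cxcl10 (chr5:92349068-92349127, minus strand): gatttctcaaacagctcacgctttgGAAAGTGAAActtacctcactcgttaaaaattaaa
The first match began 156 bases before the start in Ifit3, 104 in Ifit1, 120 in Rsad2 and 213 in Cxcl10, and Ifit3 and Ifit1 held 2 matches each. The same 4 genes were at the lowest level of 12 libraries in library 10 for Ifit3 (141.0 CPM), Ifit1 (88.1 CPM) and Cxcl10 (132.2 CPM), and in library 6 for Rsad2 (176.9 CPM). Library 10 had 33 members with 113452 UMIs in all, and libraries 10 and 6 each held 2 cells of cluster 4. These lowest values therefore rest on few cells, and a link to the promoter matches was not tested.

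**Figure D5:**
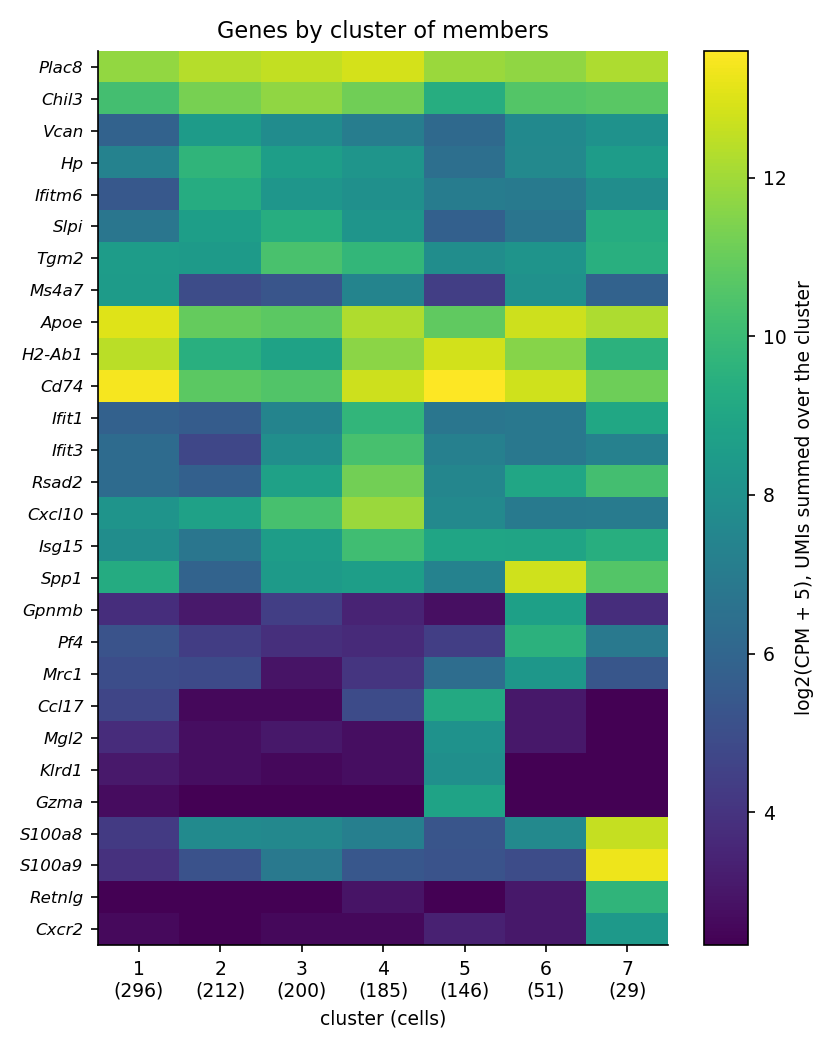
Level of 28 genes in the 7 clusters of members as log2(CPM + 5) of UMIs summed over the cluster, with the number of cells in brackets. Rsad2, Ifit3, Ifit1 and Cxcl10 are brightest in cluster 4, Spp1 in cluster 6, and S100a9 and Retnlg in cluster 7.

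The levels of several genes differed widely between libraries. Among genes with a median of at least 100 CPM, the heat shock gene Hspa1a differed most, from 0 CPM in library 10 to 3095 CPM in library 4, and its highest value elsewhere was 446.4 CPM. S100a9 followed, with 2337 CPM in library 4 and at most 447.3 CPM in the others. Ccl5, a chemokine gene for T cells, ran from 26.4 CPM in library 10 to 1194 CPM in library 6. Isg15 ran from 132.2 CPM in library 10 to 1895 CPM in library 5. Spp1 ran from 186.4 CPM in library 11 to 2585 CPM in library 12, with 2133 CPM in library 4. Ccl7 ran from 26.4 CPM in library 10 to 438.9 CPM in library 12, and Cxcl10 from 132.2 CPM in library 10 to 1589 CPM in library 2. Ms4a7 ran from 14.7 CPM in library 6, which is 1 UMI, to 332.1 CPM in library 3. The libraries were not assigned to groups, so differences between them cannot be told apart from those of treatment. Depth, the number of members, the mix of clusters and the presence of Y-linked transcripts differed with them as well, and their part was not tested.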

How the data were processed

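CD45+ cells of MC38 tumors were measured with 10x Genomics 3' v3 chemistry. The authors deposited UMI counts per gene and barcode as 1 matrix of 31053 genes and 140639 barcodes without normalization. Per the labels, reads were processed with Cell Ranger 2.1.1 on mm10 and with Seurat, while the matrix header names software version 3.0.2. Counts summed to 21649947 to 158760328 UMIs per library. Barcodes with more than 200 and less than 5000 genes were kept unless over 10% of their UMIs were mitochondrial, and doublets were not called. The members and gene lists were chosen with earlier results of these data known. Genes named in the text were taken from the 12 genes with the highest and the 12 with the lowest median ratio called in each comparison, the 12 with the widest range between libraries, the leading genes of each cluster, and listed genes, of which 314 of 316 matched. Members were clustered from 2000 variable genes, 20 components and 15 neighbours with leidenalg 0.10.2 at a resolution of 0.5. At 0.3, 7 clusters were found and at 0.8, 10 (adjusted Rand index 0.728 and 0.713), and another random seed gave 7 (0.797), so the assignment of single cells depends on the setting and the seed. The planned edgeR test of EZH2i was not run, because library numbers were not matched to mice. Intervals are exact (Clopper-Pearson or Poisson, 95%) and cover counting error only. The ratio script was tested on simulated Poisson counts with a shared expression profile and no differences between libraries other than depth. That test does not cover such differences or the comparison over 2 libraries. The count of members with B and plasma cell transcripts is not reported here. Gene coordinates are from GENCODE M21 (GRCm38).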

Additional observations from a re-analysis of the deposited data

How the results depend on the processing

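The log2 ratio of Plac8 against C1q macrophages was 4.75 to 4.91 when each library was left out, and 3.92 when each cell was thinned to 2000 UMIs, where 1 UMI decides the limits. The share of members followed the limits by construction. It was 1.06% and 0.610% with the Ly6c2 limit at 2.5 and 10 per 10000, 0.655% and 1.08% with the C1q limit at 2.5 and 10, 1.25% with a mitochondrial limit of 5%, 0.712% after thinning, and 0.787 to 1.16% when each library was left out, the highest without library 6. The alternatives chosen after seeing the data gave 0.693% without clusters 5, 6 and 7 and 1.55% without libraries 4, 5 and 6. The counts of genes against C1q macrophages were 222 to 257 higher and 270 to 309 lower over the left-out libraries. With 20 CPM added they were 150 higher and 147 lower, and a filter at 50 CPM gave 154 lower. Against Ly6c2-high C1q-positive cells, leaving out a library gave 48 to 58 higher and 37 to 49 lower, 20 CPM added gave 24 and 22, and a C1q limit of 2.5 gave 28 higher. Against Ace- or Treml4-positive cells the counts were the least stable. With the Ly6c2 limit at 2.5, where 1 library remained, they were 325 higher and 401 lower. They were 44 and 47 with 20 CPM added, 181 and 168 with a filter at 5 CPM, 53 and 48 with a filter at 50 CPM, and 91 to 282 and 81 to 401 when each library was left out, the highest without library 8, when library 2 alone remained. With at least 100 cells per population no library remained for this comparison, so it has no value. No paired analysis was possible because no library number was matched to a mouse or group, which concerns treatment alone, since the ratios between populations were already paired within libraries. Library 6, with 67848 member UMIs, limits single values to steps of 14.7 CPM.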
